A study of Mus musculus with 12 samples.

Results

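The basement membrane genes described here are 10 mouse genes, chosen by symbol: the type IV collagen chains Col4a1, Col4a2, Col4a5 and Col4a6, the collagens Col15a1 and Col18a1, the nidogens Nid1 and Nid2, the perlecan gene Hspg2 and the agrin gene Agrn. All 10 were among the 24619 genes of the deposited count table, and 8 of them passed the filter on low counts, as did 14400 genes in all. Col4a6 and Nid2 did not pass it. The libraries came from primary mouse cardiac fibroblasts, which make much of the heart's matrix and per the labels' protocols were grown in DMEM with 10% serum, starved for 12 h and then given conditioned medium for 24 h. Conditioned medium is culture medium in which other cells have been kept, and the other cells were adipocytes infected with a lentivirus. There were 4 groups of 3 libraries. VEC_CM received medium of adipocytes carrying the vector lentivirus, and OE_CM medium of adipocytes overexpressing the human microRNA hsa-miR-548ay. TGF_VEC_CM received TGF-beta1, a cytokine that drives matrix production, beside vector medium, and TGF_KD_CM received TGF-beta1 beside medium of adipocytes in which hsa-miR-548ay was inhibited. The groups follow the sample titles; in OE_CM and TGF_KD_CM the treatment label reads miR-549ay for replicate 2 and miR-550ay for replicate 3. The labels do not say whether TGF-beta1 was given to the fibroblasts or to the adipocytes, or whether the libraries of a group came from separate cultures. Each p-value therefore rests on the variation among libraries, and that may be technical. VEC_CM and OE_CM belong to one part of the study and both TGF-beta1 groups to another, so TGF-beta1 and the part of the study cannot be told apart when TGF_VEC_CM is compared with VEC_CM.

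A basement membrane is a thin sheet of matrix that underlies epithelia and endothelia and surrounds muscle, fat and Schwann cells. Laminins and type IV collagen each form a network in it, nidogens link both networks, and the heparan sulfate proteoglycans perlecan and agrin bind to them and hold growth factors. In the heart such sheets wrap cardiomyocytes and capillaries, and fibroblasts contribute part of their components. Type IV collagen chains assemble into heterotrimers inside the cell, and their genes lie in pairs that are transcribed in opposite directions from a shared start region. The chains of Col4a1 and Col4a2 form the widespread trimer, and those of Col4a5 and Col4a6 join trimers of more restricted tissues. Collagens XV and XVIII, the multiplexins, carry sugar chains and sit at the border of basement membrane and surrounding matrix. A fragment of collagen XVIII, endostatin, is known for restraining blood vessel growth.

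Promoter windows of 300 bases, from 250 before to 50 after a start position, were taken from a RefSeq table (GRCm38.p6) and were found for 9 of the 10 genes; Nid2 had no entry. The start behind a window need not be the outermost end of the gene given here. By the RefSeq gene coordinates it lies inside the gene for Col4a1, Col4a5, Col4a6, Col15a1, Hspg2 and Agrn. The same holds for a further window of Col18a1 (chr10:77113656-77113955) and a further window of Agrn (chr4:156186210-156186509). The following 2 windows are shown because Col4a1 and Col4a2 are divergent neighbours on chromosome 8 whose ratio differed between groups. Col4a1 lies on the minus strand at chr8:11198423-11312889 and Col4a2 on the plus strand at chr8:11312805-11449287, so that their ends overlap by 85 bases. The windows are chr8:11312777-11313076 on the minus strand and chr8:11312555-11312854 on the plus strand, and they share 78 bases. Capitals mark the motifs GGGCGG (a GC box) and CCAAT on either strand, so that they also read CCGCCC and ATTGG.
Col4a1: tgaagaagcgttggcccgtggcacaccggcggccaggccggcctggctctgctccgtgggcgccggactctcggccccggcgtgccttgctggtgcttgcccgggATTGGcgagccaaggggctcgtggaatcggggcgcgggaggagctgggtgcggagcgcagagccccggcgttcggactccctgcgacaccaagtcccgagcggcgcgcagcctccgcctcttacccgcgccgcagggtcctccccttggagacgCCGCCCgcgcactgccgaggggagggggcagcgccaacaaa
Col4a2: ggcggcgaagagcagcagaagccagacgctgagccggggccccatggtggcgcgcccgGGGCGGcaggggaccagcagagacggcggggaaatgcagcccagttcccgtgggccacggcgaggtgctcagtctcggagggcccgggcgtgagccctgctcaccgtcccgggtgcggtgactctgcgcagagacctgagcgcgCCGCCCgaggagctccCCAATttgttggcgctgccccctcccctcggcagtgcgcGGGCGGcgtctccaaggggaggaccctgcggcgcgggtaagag
The Col4a1 window held 1 GGGCGG and 1 CCAAT, and the Col4a2 window 3 GGGCGG and 1 CCAAT. The GGGCGG of the Col4a1 window lies in the 78 shared bases and is also 1 of the 3 counted in the Col4a2 window. Their GC content was 74.0% and 73.7%, against a median of 52.7% over 32817 mouse windows, of which 35.6% held GGGCGG and 37.4% CCAAT on either strand.

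The next 2 windows are shown because Agrn, on the minus strand at chr4:156165290-156197533, rose in the same libraries as the gene next to it. That neighbour, Isg15, encodes a ubiquitin-like protein induced by interferon. It lies on the same strand at chr4:156199424-156200818, 1890 bases upstream of Agrn, and was chosen after its values were seen. The windows are chr4:156197439-156197738 and chr4:156200769-156201068. Capitals mark GGGCGG on either strand in Agrn. In Isg15 they mark the core of the interferon-stimulated response element, 2 runs of GAAA with any 2 bases between them on either strand, a motif added after the data were seen.
Agrn: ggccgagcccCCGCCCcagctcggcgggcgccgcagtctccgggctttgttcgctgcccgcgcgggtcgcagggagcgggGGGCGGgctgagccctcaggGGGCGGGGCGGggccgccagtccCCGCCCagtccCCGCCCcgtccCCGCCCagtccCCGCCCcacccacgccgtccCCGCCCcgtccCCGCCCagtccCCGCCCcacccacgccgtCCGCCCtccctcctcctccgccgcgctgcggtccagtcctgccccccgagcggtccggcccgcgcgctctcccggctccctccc
Isg15: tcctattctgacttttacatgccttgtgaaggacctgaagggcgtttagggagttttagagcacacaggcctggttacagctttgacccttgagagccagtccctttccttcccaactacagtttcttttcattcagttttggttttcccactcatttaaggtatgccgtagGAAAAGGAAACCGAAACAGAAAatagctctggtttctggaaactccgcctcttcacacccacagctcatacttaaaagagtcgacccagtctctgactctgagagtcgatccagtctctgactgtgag
The Agrn window held 12 matches to GGGCGG, overlapping ones included, at a GC content of 83.3%, and no match to the interferon element. The Isg15 window held 3 overlapping matches to that element, which 3.43% of all windows contained. Of the other windows, that of Hspg2 held 5 GGGCGG, and one of the Col18a1 windows held 3. TATAAA (13.6% of all windows) and TGANTCA (7.81%, a site read by AP-1 factors) matched no window of the 9 genes. CAGACA (21.0%, a site read by SMAD factors) matched the Col18a1 window whose start lies inside the gene. A match is a run of letters, not evidence of a factor bound there.

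Library totals ran from 33379207 to 37226153 counts, so that 3 counts, the floor used here, stood for at most 0.0939 CPM, the usual count scaled to library size. CPM values use TMM factors, which correct for library composition, and a mean ± SD is taken over a group's 3 libraries. The floor covers counting error only. Of 9 fibroblast markers, Col1a2 stood at 4379 CPM, Ddr2 at 443 CPM and Pdgfra at 194 CPM in VEC_CM, whereas Dcn at 0.137 CPM and Lum at 0.0091 CPM were near or under the floor. The summed level of 9 endothelial markers was between 0.508 and 1.88 CPM and that of 5 cardiomyocyte markers between 0.929 and 2.08 CPM, with Cdh5, Emcn and Erg at 0 in VEC_CM. Summed leukocyte markers (8 genes, led by Lyz2) ranged over 35.9 to 38.8 CPM in VEC_CM and 16.8 to 29.1 CPM in OE_CM, and over 29.5 to 32.4 CPM in TGF_VEC_CM and 23.3 to 25.9 CPM in TGF_KD_CM. Summed mural markers (7 genes, nearly all Cspg4) ranged over 598 to 617, 896 to 903, 820 to 844 and 636 to 649 CPM in the order VEC_CM, OE_CM, TGF_VEC_CM, TGF_KD_CM, and adipocyte markers (8 genes, led by Plin4, with Lep at 0 in 3 groups) over 946 to 1009, 776 to 818, 752 to 823 and 968 to 985 CPM. Of the adipocyte markers in VEC_CM, Plin4 stood at 703 CPM, Fabp4 at 260 and Cidec at 7.92. Adipoq was at 0.537 CPM, Plin1 at 0.255, Cfd at 0.291 and Retn at 0.0729. Epicardial markers (6 genes, nearly all Msln) ranged from 47.1 to 93.7 CPM and Schwann cell markers (6 genes) from 24.2 to 35.4 CPM across the 12 libraries. In VEC_CM Msln stood at 60.9 CPM, whereas Krt19 was at 0.200 CPM, Krt8 at 0.137, and Wt1 and Upk3b at 0. The part of these cell types in the results below was not tested. In bulk RNA, fewer cells of a type and less RNA per cell cannot be told apart.

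The fibroblasts carried abundant messenger RNA of a few basement membrane genes, less of Col4a5 and Agrn, and almost none of the others. Levels of different genes are compared per length, as FPKM (counts scaled by library total and by gene length), from the deposited FPKM table. In VEC_CM Col4a1 stood at 97.3 ± 1.30 FPKM, Col18a1 at 60.6 ± 1.64, Col4a2 at 58.4 ± 0.737 and Hspg2 at 56.5 ± 1.69 (SD, n = 3). Col4a2 and Hspg2, neighbours in that order, overlapped between libraries. Col4a5 followed at 4.01 ± 0.213 FPKM and Agrn at 1.34 ± 0.0794 FPKM. Nid1 at 0.231 ± 0.0855 FPKM and Col15a1 at 0.115 ± 0.0119 FPKM came next, and Nid2 stood at 0.028 ± 0.011 FPKM. The order changed between groups in 3 places. In OE_CM the 3 Col18a1 libraries, from 78.0 to 82.0 FPKM, all lay above the 3 Col4a1 libraries, from 77.0 to 77.7 FPKM. In OE_CM Hspg2, from 45.2 to 46.0 FPKM, also lay just above Col4a2, from 42.8 to 45.1 FPKM, whereas the mean of Col4a2 was the higher in each other group. In TGF_KD_CM Agrn, from 4.21 to 4.43 FPKM, lay above Col4a5, from 3.50 to 3.94 FPKM. Summed over the 10 genes, OE_CM libraries held 2162 to 2233 CPM, VEC_CM libraries 2296 to 2367, TGF_KD_CM libraries 2437 to 2503 and TGF_VEC_CM libraries 2800 to 2834, with no overlap between groups.

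**Figure D1:**
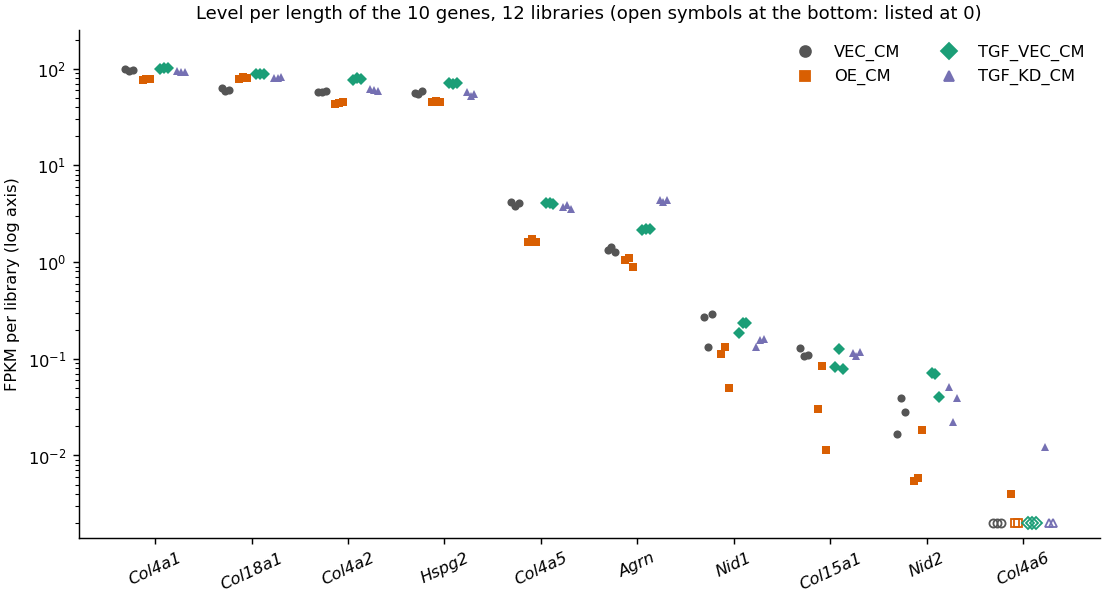
FPKM (log axis) of the 10 basement membrane genes in each of the 12 libraries, coloured by group, with open symbols at the bottom for libraries listed at 0. Col4a1, Col18a1, Col4a2 and Hspg2 lie between 42.8 and 101 FPKM, Col4a5 and Agrn between 0.900 and 4.43 FPKM, and the other 4 genes below 0.290 FPKM.

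The low genes rest on few reads. Nid1, which encodes the principal linker of laminin and type IV collagen, had between 10 and 63 counts in a library, and Col15a1 between 2 and 25. Nid2, the second nidogen, had between 1 and 12 counts, and 437 exon bases of it (8.45% of its exons in GENCODE M21) are shared with Rtraf on the opposite strand. Col4a6 had no count in 10 of the 12 libraries, 1 count in OE_CM replicate 1 and 3 counts in TGF_KD_CM replicate 1. Its levels were at or under the floor of 3 counts in every library, so no difference in Col4a6 was detectable at this depth. The remaining chains of the family, Col4a3 with 1 to 10 counts and Col4a4 with 0 to 4, were also at the bottom of the range. The 1274 bases between Col4a6 and Col4a5 on chromosome X therefore separated a gene with next to no reads from one with 352 to 999 counts in each library.

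Counts were tested with edgeR's quasi-likelihood test in 1 model of all 12 libraries, two-sided, with Benjamini-Hochberg adjustment over the 14400 genes and a threshold of 0.05; every adjusted p below comes from it unless another tool is named. The error beside a log2 fold change is its standard error (SE). OE_CM was compared with VEC_CM to ask how fibroblasts respond when the adipocytes overexpress the microRNA. All 8 tested members passed, 7 lower and 1 higher in OE_CM, where 54.0% of all tested genes passed, 25.7% of them as lower and 28.4% as higher. Col4a5, Col15a1 and Nid1 changed at least 2-fold, as did 7.35% of all tested genes. The median log2 fold change was -0.32 over the 8 genes and -0.01 over all tested genes. For TGF_KD_CM against TGF_VEC_CM, which asks the same of inhibition beside TGF-beta1, 5 of 8 passed, 4 lower and 1 higher, against 43.3% of all genes (20.2% lower and 23.0% higher). Agrn alone changed at least 2-fold, as did 4.03% of all genes. Their median was -0.09, against -0.00 for all genes. TGF_VEC_CM against VEC_CM gave 4 members higher and none lower, against 58.3% of all genes (28.9% higher and 29.4% lower), and none changed at least 2-fold, as 9.23% of all genes did, with a median of 0.14 against 0.00. Both comparisons with VEC_CM share its libraries, and both with TGF_VEC_CM share those. Libraries of the groups compared did not overlap for 7, 6 and 4 of the tested members in these 3 comparisons, against 58.2%, 50.9% and 62.8% of all genes.

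**Figure D2:**
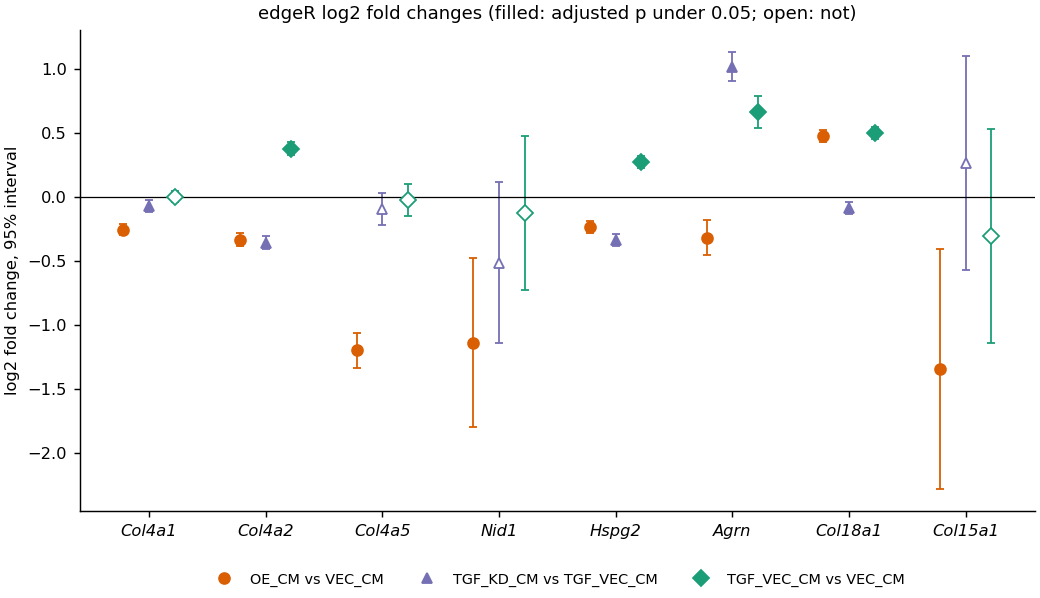
Log2 fold changes of the 8 tested basement membrane genes in 3 comparisons, with 95% intervals as bars and filled symbols for an adjusted p under 0.05 (edgeR). In OE_CM against VEC_CM 7 genes lie below 0 and Col18a1 above it, and in TGF_KD_CM against TGF_VEC_CM Agrn is the gene with a filled symbol above 0.

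Col4a1 and Col4a2 encode the chains of one trimer, and both fell in OE_CM, while Col4a2 but not Col4a1 passed the test in TGF_VEC_CM against VEC_CM. Col4a1 was at 646, 633 and 645 CPM in the VEC_CM libraries, 535, 541 and 537 in OE_CM, 638, 641 and 649 in TGF_VEC_CM, and 622, 613 and 605 in TGF_KD_CM. The OE_CM libraries were the lowest and apart from all others, and TGF_VEC_CM overlapped VEC_CM. Col4a2 was at 371, 374 and 381 CPM in VEC_CM, 290, 300.3 and 304 in OE_CM, 481, 493 and 489 in TGF_VEC_CM, and 389, 382 and 372 in TGF_KD_CM. Here TGF_VEC_CM stood above every other group, and TGF_KD_CM overlapped VEC_CM. Col4a1 fell by 0.25 ± 0.023 on the log2 scale (adjusted p = 2.04e-15) in OE_CM and Col4a2 by 0.33 ± 0.025 (adjusted p = 1.71e-18). With inhibition Col4a1 fell by 0.07 ± 0.023 (adjusted p = 0.0111) and Col4a2 by 0.36 ± 0.025 (adjusted p = 9.75e-20). TGF_VEC_CM against VEC_CM left Col4a1 at a log2 fold change of 0.00 (95% interval -0.04 to 0.05, adjusted p = 0.908), whereas Col4a2 rose by 0.38 ± 0.025 (adjusted p = 2.31e-21), or 1.30-fold. The inhibition value of Col4a1 lost its call when no filter on low counts was used (log2 fold change -0.06, adjusted p = 0.0617), and neither Col4a1 fall passed a test against a 1.2-fold change. The genes share 22 exon bases in GENCODE M21, 0.332% of Col4a2's exons.

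The ratio of Col4a2 to Col4a1 within a library, taken from FPKM, needs no scaling between libraries. It was 0.600 ± 0.0097 in VEC_CM, 0.569 ± 0.012 in OE_CM, 0.778 ± 0.0096 in TGF_VEC_CM and 0.638 ± 0.0055 in TGF_KD_CM (SD, n = 3). The libraries of compared groups did not overlap in any of the 3 comparisons, and each gave an exact two-sided permutation p of 0.1, the smallest that 3 against 3 libraries allow. On the log2 scale the ratio was 0.37 higher in TGF_VEC_CM than in VEC_CM. The difference was -0.29 for TGF_KD_CM against TGF_VEC_CM and -0.08 for OE_CM against VEC_CM. The ratio of Col18a1 to Col4a1 was 0.623 ± 0.011 in VEC_CM and 1.03 ± 0.023 in OE_CM, without overlap. It was 0.877 ± 0.0077 in TGF_VEC_CM, also apart from VEC_CM, and 0.865 ± 0.019 in TGF_KD_CM, which overlapped TGF_VEC_CM. For Hspg2 to Col4a1 the values were 0.581 ± 0.014 in VEC_CM, 0.590 ± 0.0036 in OE_CM, 0.699 ± 0.010 in TGF_VEC_CM and 0.580 ± 0.019 in TGF_KD_CM. The Hspg2 ratio overlapped between OE_CM and VEC_CM (exact permutation p = 0.4) and stood apart in TGF_VEC_CM. Over 5 ratios and 3 comparisons the smallest exact permutation p was 0.1, so none could pass an adjusted threshold.

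**Figure D3:**
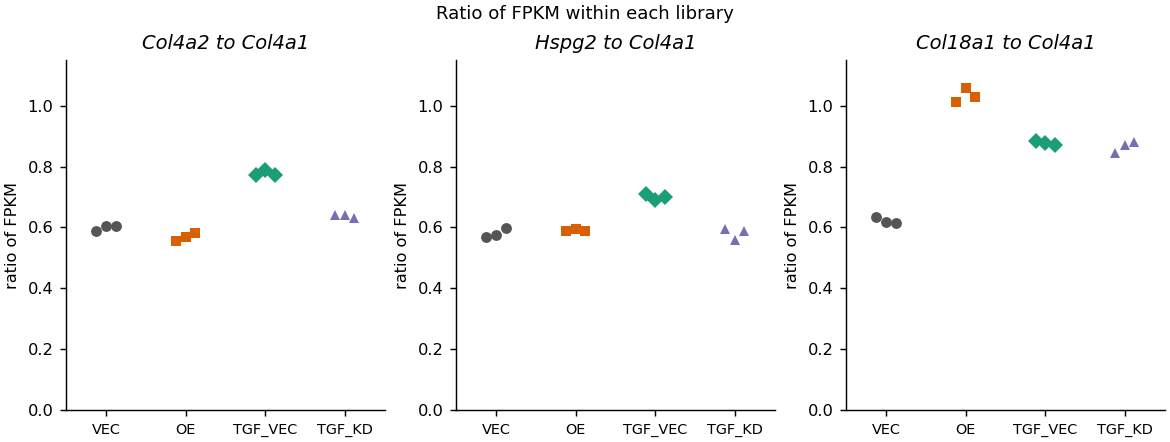
Ratio of FPKM within each library for Col4a2, Hspg2 and Col18a1, each to Col4a1, with 1 point per library and 3 libraries per group on an axis that starts at 0. Col4a2 to Col4a1 is highest in TGF_VEC_CM (0.772 to 0.789), and Col18a1 to Col4a1 exceeds 1 in the OE_CM libraries (1.01 to 1.06).

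Col4a5, a chain of the more restricted trimers, had a narrow range in 3 groups and was low in OE_CM. It was at 27.2, 24.7 and 26.7 CPM in VEC_CM, 11.2, 12.0 and 11.0 in OE_CM, 26.2, 25.9 and 25.4 in TGF_VEC_CM, and 24.2, 25.7 and 22.6 in TGF_KD_CM. The OE_CM libraries lay below all others, and the other groups overlapped their controls. Col4a5 fell by 1.197 ± 0.071 on the log2 scale in OE_CM (adjusted p = 1.68e-23), 2.29-fold. Neither of its other log2 fold changes passed, at -0.10 (95% interval -0.22 to 0.03, adjusted p = 0.24) with inhibition and -0.02 (-0.15 to 0.10, adjusted p = 0.805) for TGF_VEC_CM against VEC_CM. Its FPKM ratio to Col4a1 was 0.0412 ± 0.0016 in VEC_CM and 0.0214 ± 0.00084 in OE_CM, without overlap (exact permutation p = 0.1).

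Of the nidogens, Nid1 was at 1.61, 0.792 and 1.72 CPM in VEC_CM, 0.705, 0.837 and 0.313 in OE_CM, 1.07, 1.35 and 1.36 in TGF_VEC_CM, and 0.786, 0.923 and 0.939 in TGF_KD_CM. VEC_CM replicate 2 fell within the OE_CM range, so these groups overlapped. Nid1 fell by 1.14 ± 0.34 in OE_CM (adjusted p = 0.00309), a change that passed with each library left out in turn, at log2 values from -1.41 to -0.83. With inhibition the log2 fold change was -0.51 (95% interval -1.14 to 0.12, adjusted p = 0.201), with no overlap between the 3 libraries of each group. Nid2, not tested, was at 0.0817, 0.191 and 0.137 CPM in VEC_CM, 0.0282, 0.0299 and 0.0939 in OE_CM, 0.337, 0.325 and 0.190 in TGF_VEC_CM, and 0.244, 0.109 and 0.188 in TGF_KD_CM. Most of the VEC_CM and OE_CM values were close to the floor, and the ranges of compared groups overlapped.

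Hspg2 encodes perlecan, the large heparan sulfate proteoglycan of most basement membranes. Its messenger RNA was lower in OE_CM and with inhibition and higher in TGF_VEC_CM than in VEC_CM. Hspg2 was at 801, 792 and 838 CPM in VEC_CM, 685, 700.3 and 687 in OE_CM, 985, 961 and 990 in TGF_VEC_CM, and 805, 745 and 774 in TGF_KD_CM. OE_CM was the lowest group and TGF_VEC_CM the highest, and TGF_KD_CM overlapped VEC_CM. Hspg2 fell by 0.23 ± 0.024 in OE_CM (adjusted p = 1.38e-12) and by 0.34 ± 0.024 with inhibition (adjusted p = 9.48e-19). It rose by 0.27 ± 0.024 in TGF_VEC_CM against VEC_CM (adjusted p = 2.73e-15). The fall in OE_CM and the rise in TGF_VEC_CM did not pass the test against a 1.2-fold change (adjusted p = 1 and 0.409).

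Agrn encodes agrin, the proteoglycan that gathers acetylcholine receptors at the neuromuscular junction and that binds dystroglycan in heart and other tissues. Its messenger RNA rose 2.02-fold with inhibition and fell in OE_CM. Agrn was at 16.7, 17.9 and 15.9 CPM in VEC_CM, 14.0, 14.7 and 11.9 in OE_CM, 26.4, 26.8 and 26.9 in TGF_VEC_CM, and 54.0, 53.0 and 55.3 in TGF_KD_CM. No compared groups overlapped, and the TGF_KD_CM libraries stood above all others. Agrn fell by 0.32 ± 0.071 in OE_CM (adjusted p = 0.000102), a fall that did not pass the test against a 1.2-fold change (adjusted p = 0.28). It rose by 1.02 ± 0.058 with inhibition (adjusted p = 1.10e-23), from 26.7 ± 0.257 to 54.1 ± 1.16 CPM in the libraries in which Hspg2 fell. It rose by 0.66 ± 0.065 in TGF_VEC_CM against VEC_CM (adjusted p = 5.04e-14). Within libraries the FPKM ratio of Agrn to Hspg2 was 0.0237 ± 0.0021 in VEC_CM, 0.0223 ± 0.0023 in OE_CM, 0.0311 ± 0.00062 in TGF_VEC_CM and 0.0796 ± 0.0028 in TGF_KD_CM. The TGF_KD_CM ratio overlapped no other group (exact permutation p = 0.1 against TGF_VEC_CM, the smallest possible).

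**Figure D4:**
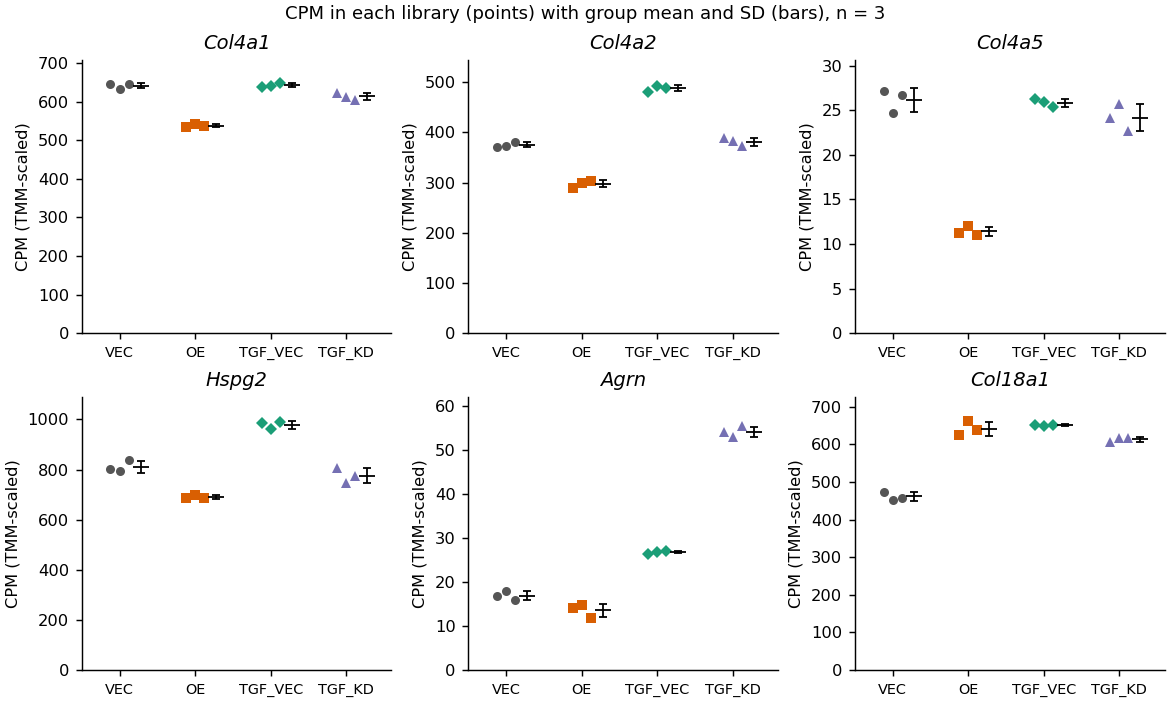
CPM of Col4a1, Col4a2, Col4a5, Hspg2, Agrn and Col18a1 in each library (points) with the group mean and SD (bars, n = 3) on axes that start at 0. Col4a5 is low in the OE_CM libraries (11.0 to 12.0 CPM), Agrn is high in the TGF_KD_CM libraries (53.0 to 55.3 CPM), and Col18a1 is low in VEC_CM (453 to 474 CPM).

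Isg15, the gene upstream of Agrn shown above, went from 37, 39 and 42 counts in TGF_VEC_CM to 1810, 2080 and 2022 counts in TGF_KD_CM, a log2 fold change of 5.62 ± 0.20 (adjusted p = 4.30e-11, edgeR). In the same libraries Agrn went from 941, 991 and 992 counts to 1993, 1954 and 2062. Both genes were thus high in the TGF_KD_CM libraries, and neither overlapped TGF_VEC_CM. Isg15 was at 50, 38 and 40 counts in VEC_CM and 38, 7 and 7 in OE_CM, where it was lower by the test (log2 fold change -1.17 ± 0.42, adjusted p = 0.0318), as Agrn was, although the libraries overlapped. In TGF_VEC_CM against VEC_CM, where Agrn rose, the Isg15 log2 fold change was -0.11 ± 0.35 (adjusted p = 0.81). The length behind the deposited FPKM of Agrn was 12650 bases, against 9285 bases of merged exons in GENCODE M21. The sources used here do not give the annotation or strand setting of the counting, and whether reads of the Isg15 region were counted in Agrn was not tested.

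**Figure D5:**
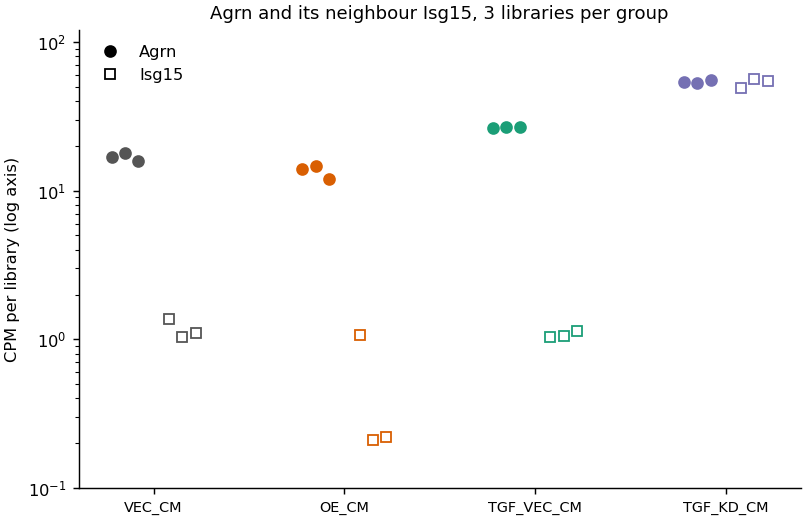
CPM (log axis) of Agrn (filled circles) and its upstream neighbour Isg15 (open squares) in the 3 libraries of each group. Agrn stands at 26.4 to 26.9 CPM in TGF_VEC_CM and 53.0 to 55.3 in TGF_KD_CM, and Isg15 at 1.04 to 1.14 and 49.1 to 56.4 CPM.

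Col18a1, the multiplexin that yields endostatin, was the member that rose in OE_CM. It was at 474, 453 and 458 CPM in VEC_CM, 626, 663 and 638 in OE_CM, 653, 650.1 and 652 in TGF_VEC_CM, and 607, 616 and 617 in TGF_KD_CM. The VEC_CM libraries lay below all others. Col18a1 rose by 0.48 ± 0.024 in OE_CM (adjusted p = 4.76e-27) and by 0.50 ± 0.024 in TGF_VEC_CM against VEC_CM (adjusted p = 5.87e-28). Both of these share the VEC_CM libraries. With inhibition it fell by 0.09 ± 0.024 (adjusted p = 0.00163), a change that did not pass the test against a 1.2-fold change.

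The other multiplexin, Col15a1, had 25, 21 and 21 counts in VEC_CM, 6, 16 and 2 in OE_CM, 15, 24 and 15 in TGF_VEC_CM, and 22, 21 and 23 in TGF_KD_CM. All OE_CM libraries were below VEC_CM, and their own values differed several-fold. It fell by 1.35 ± 0.48 on the log2 scale in OE_CM (adjusted p = 0.014). That call was lost without OE_CM replicate 1 (-1.15, adjusted p = 0.067) or replicate 3 (-0.91, adjusted p = 0.124), and the value became -2.33 without replicate 2. With inhibition (0.27, adjusted p = 0.647) and in TGF_VEC_CM against VEC_CM (-0.30, adjusted p = 0.56) Col15a1 did not pass, with 95% intervals of -0.57 to 1.10 and -1.14 to 0.53. With single libraries left out these values ranged from 0.13 (without TGF_VEC_CM replicate 3) to 0.50 (without TGF_VEC_CM replicate 2) and from -0.54 (without TGF_VEC_CM replicate 2) to -0.17 (without TGF_VEC_CM replicate 3), and none passed.

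Whether overexpression and inhibition media had different effects was tested as the difference between both log2 fold changes in the same edgeR model; inhibition was studied beside TGF-beta1 and overexpression without it. This difference passed for 6 of 8 members, 2 higher and 4 lower, against 52.5% of all tested genes (25.6% higher and 26.8% lower). It was at least 2-fold for 3 of them, Agrn, Col4a5 and Col15a1, as for 9.76% of all genes. It was -1.33 ± 0.092 for Agrn (adjusted p = 2.13e-20), -1.10 ± 0.096 for Col4a5 (adjusted p = 6.60e-16) and 0.56 ± 0.034 for Col18a1 (adjusted p = 3.04e-23). Agrn fell in one and rose in the other, Col18a1 rose in one and fell in the other, and Col4a5 passed in OE_CM alone. The difference was -0.19 ± 0.032 for Col4a1 (adjusted p = 1.12e-06), which fell more in OE_CM, and 0.11 ± 0.034 for Hspg2 (adjusted p = 0.00745), which fell more with inhibition. The Hspg2 difference did not pass in 5 of 21 alternatives: upper-quartile scaling (0.04, adjusted p = 0.31), the test against a 1.2-fold change, and limma on FPKM in 3 settings (0.06, adjusted p from 0.245 to 0.357). For Col4a2, which fell in both, the difference was 0.02 (95% interval -0.05 to 0.09, adjusted p = 0.608). Col15a1 gave -1.61 ± 0.64 (adjusted p = 0.0293). Its value was -2.60 without OE_CM replicate 2 and -1.17 without OE_CM replicate 3. The call was lost without VEC_CM replicate 1, OE_CM replicate 1 or 3, TGF_VEC_CM replicate 1 or 3, or TGF_KD_CM replicate 3 (adjusted p from 0.0518 to 0.13). Nid1 gave -0.63 (95% interval -1.54 to 0.29, adjusted p = 0.269), and ranged from -0.90 without VEC_CM replicate 2 to -0.30 without OE_CM replicate 3 when single libraries were left out, passing in none of these fits.

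Likeness of profile was measured as the root mean square difference of centred log2 CPM over the 12 libraries, among tested genes with a mean of at least 1 CPM. The measure is not scaled, so genes with small changes and many reads lie close together and genes with few reads lie far from others. Among the genes most like Col4a1 were Plxnb2 (0.030) and Midn (0.033), each closer than any gene was to another member. Its partner Col4a2 stood at rank 3927 of 11993 genes for Col4a1 (0.172), and Col4a1 at rank 661 for Col4a2. Nearest to Col4a2 were Tcf19, Gstm4 and Cdk18, at 0.053 to 0.055. Col18a1 had Slc25a28 (0.037), Syt13 and Cd109 as nearest genes, and Hspg2 had Fbf1 (0.038), Lrp11 and Hsp90b1. Col4a5 was closest to Acaa2, Prrt2 and Gsta4, at 0.102 to 0.105. For Agrn the nearest genes were farther, with H2-T22 at 0.178, Lcn2 at 0.179 and Ube2l6 at 0.203, and Hspg2 was at rank 3321. The nearest profiles of the low genes were farther still. Col15a1 was closest to Tulp2 (0.364), Cd3g, a T cell gene (0.372), and Mgat3 (0.373). Nid1 was closest to Rtkn2 and Fetub (both 0.310) and to Lyz2 (0.338), the leading leukocyte marker. Like Nid1, Lyz2 fell in OE_CM, by 0.80 ± 0.10 on the log2 scale to 12.6 ± 2.81 CPM, and it also fell with inhibition, by 0.45 ± 0.10 to 14.8 ± 1.01 CPM. The part of leukocyte RNA in the Nid1 values was not tested. All these likenesses rest on the same 12 libraries and are descriptive.

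Genes that act with the members were counted from lists, by their messenger RNA. Of all tested genes, 28.4% rose and 25.7% fell in OE_CM, and 23.0% rose and 20.2% fell with inhibition. In TGF_VEC_CM against VEC_CM 28.9% rose and 29.4% fell. Medians over all tested genes were -0.01, -0.00 and 0.00 in that order. These shares and medians go with the list counts of this paragraph and the next, and no list was tested as a set. Of 11 laminin chains, the partners of type IV collagen in the sheet, 7 were tested: 4 rose and 1 fell in OE_CM, 1 rose and 4 fell with inhibition, and 6 rose and 1 fell in TGF_VEC_CM against VEC_CM. Lamb1 was at 299 ± 10.0 CPM in VEC_CM, 453 ± 6.42 in OE_CM, 484 ± 16.1 in TGF_VEC_CM and 358 ± 4.14 in TGF_KD_CM, and it rose by 0.60 ± 0.026 in OE_CM. Lamb2 fell by 0.86 ± 0.036 in OE_CM, and Lamb3, the laminin with the largest change, went from 0.373 ± 0.298 CPM in VEC_CM to 13.8 ± 1.21 in OE_CM, 37.1 ± 4.93 in TGF_VEC_CM and 7.51 ± 0.537 in TGF_KD_CM. Of 18 tested genes for folding, crosslinking and secretion of type IV collagen, 10 rose and 1 fell in OE_CM, 7 rose and 5 fell with inhibition, and 10 rose and 4 fell in TGF_VEC_CM. Pxdn, the peroxidase that forms the sulfilimine crosslinks of type IV collagen, rose from 0.309 ± 0.126 CPM in VEC_CM to 2.10 ± 0.376 in OE_CM (adjusted p = 7.29e-12, edgeR). Loxl2, a lysyl oxidase of the same network, rose by 1.04 ± 0.042 in OE_CM and fell by 0.45 ± 0.037 with inhibition. Of 16 tested genes of heparan sulfate synthesis and remodelling, which make the sugar chains of perlecan and agrin, 5 rose and 7 fell in OE_CM, 4 rose and 5 fell with inhibition, and 8 rose and 5 fell in TGF_VEC_CM. Ext1, part of the polymerase of these chains, rose by 0.93 ± 0.032 in OE_CM, whereas Ext2 of the same list fell by 0.16 ± 0.039. Xylt1, an enzyme that starts the chains, fell by 1.76 ± 0.39 in OE_CM, from a low level of 1.147 ± 0.111 CPM in VEC_CM. The related Xylt2 had far more reads and fell by 0.14 ± 0.058, from 30.3 ± 0.653 CPM in VEC_CM to 27.5 ± 0.687 in OE_CM. The heparan sulfate cutting enzyme Hpse fell by 0.92 ± 0.061 in OE_CM. Medians over these lists were 0.20, 0.13 and -0.03 in OE_CM, -0.39, 0.02 and -0.05 with inhibition, and 0.69, 0.18 and 0.10 in TGF_VEC_CM, in the order laminins, type IV collagen processing and heparan sulfate.

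A list with 15 tested genes held mainly receptors that bind basement membrane, and also utrophin (Utrn), which is not such a receptor. Of these genes 5 rose and 8 fell in OE_CM, 4 rose and 6 fell with inhibition, and 5 rose and 5 fell in TGF_VEC_CM (medians -0.13, -0.12 and 0.03). The integrin chain Itga3 fell by 3.07 ± 0.064 in OE_CM and by 0.85 ± 0.052 with inhibition. Genes of agrin signalling were singled out after their values were seen. Among them, dystroglycan (Dag1) fell by 0.27 ± 0.026 in OE_CM and had a log2 fold change of -0.04 ± 0.026 with inhibition (adjusted p = 0.182). Lrp4 stood at 2.76 ± 0.766 CPM in TGF_VEC_CM and 2.52 ± 0.435 in TGF_KD_CM, where Agrn rose (adjusted p = 0.657), and Musk, not tested, was at 0.256 ± 0.0142 and 0.0900 ± 0.0563 CPM. Of 6 tested proteins associated with basement membranes, 2 rose and 2 fell in OE_CM, 2 rose and 2 fell with inhibition, and 4 rose and 2 fell in TGF_VEC_CM (medians -0.03, -0.60 and 1.197). In OE_CM Tinagl1 fell by 1.01 ± 0.043 and the collagen-binding Sparc by 0.34 ± 0.022, while Smoc2 stood at 0.0546 ± 0.0473 CPM in VEC_CM, under the floor, and at 2.09 ± 0.0494 CPM in OE_CM. Vwa1 rose by 2.31 ± 0.18 in TGF_VEC_CM against VEC_CM and fell by 1.58 ± 0.17 with inhibition. Of 11 tested proteases that cut these matrices, 5 rose and 2 fell in OE_CM, 4 rose and 2 fell with inhibition, and 5 rose and 1 fell in TGF_VEC_CM (medians -0.22, -0.25 and 0.55). Plat, tissue plasminogen activator, rose by 1.54 ± 0.13 in OE_CM and by 3.46 ± 0.11 in TGF_VEC_CM, and fell by 2.12 ± 0.099 with inhibition.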

How the data were processed

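The authors deposited unnormalized counts for 24619 gene symbols in 12 libraries, and an FPKM table in which each count is divided by the library total and by 1 length per gene. The genome build was GRCm38 (mm10), according to the submitters' processing notes. The sources used here name no aligner, counting program, annotation or strand setting. Counts were analysed with edgeR 4.0.16 in R 4.3.3: filterByExpr (minimum count 10), TMM factors and 1 robust quasi-likelihood model with a mean per group. Counts of replicates differed by a chi-square per gene of 2.93 to 4.29, above sampling noise. Ratios of FPKM were compared with exact permutation tests. DESeq2 1.42.0, limma 3.58.1 on log2(FPKM + 1) and other alternatives are given in the closing section. The procedure was also run on counts simulated from its own model, with the variation per gene estimated from these libraries. Such a run cannot show whether the variation among libraries is technical. For each list and comparison, the rule for named genes takes up to 3 called genes with the largest change and a group mean of at least 1 CPM; for each member it takes the 3 genes of nearest profile, of which 1 is not reported here. The members and lists were chosen with earlier results of these data known.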

Additional observations from a re-analysis of the deposited data

Results flagged for a closer look

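For 6 genes the effect of overexpression medium differed from that of inhibition medium by a test of the difference itself (edgeR, adjusted over all 14400 tested genes). The difference of log2 fold changes, OE_CM against VEC_CM minus TGF_KD_CM against TGF_VEC_CM, was -1.33 for Agrn, -1.10 for Col4a5, -0.19 for Col4a1 and -1.61 for Col15a1. It was 0.56 for Col18a1 and 0.11 for Hspg2. Such a difference passed for 52.5% of all tested genes. The 2 effects were measured in different parts of the study, 1 of them beside TGF-beta1, and these cannot be told apart from the direction of the microRNA change.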

How the results depend on the processing

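Of 23 member values past the threshold, 13 kept their direction and call under all alternatives run, 10 lost the call under some, and none reversed. Against a 1.2-fold change in place of none (edgeR), the tested members called were 5 in OE_CM, 3 with inhibition and 3 for the difference of effects, and all genes called were 3078, 1507 and 4091, with 3575 for TGF_VEC_CM against VEC_CM. Upper-quartile scaling turned the split of all genes in OE_CM from 4083 higher and 3695 lower to 2798 and 5059, and limma on log2(FPKM + 1) gave 2779 and 4478; the members called in OE_CM were 8, 1 higher and 7 lower, with upper-quartile scaling too. Values that had not passed changed sign for TGF_VEC_CM against VEC_CM and for the Col4a2 difference of effects. Col4a1 was -0.016 with no filter and -0.0087 to 0.021 with single libraries left out, and limma on log2(FPKM + 1) without a filter gave 0.046 (adjusted p = 0.0365). Col4a5 was 0.0041 with upper-quartile scaling, 0.019 with limma on log2(FPKM + 1), with or without a filter, 0.024 on log2(FPKM + 0.1) and -0.064 to 0.020 with single libraries left out, and Nid1 was -0.40 to 0.083 with single libraries left out. The Col4a2 difference was -0.040 with upper-quartile scaling, -0.018 with limma on log2(FPKM + 1), with or without a filter, and -0.020 on log2(FPKM + 0.1). The cause of these changes was not tested. With the replicate number as a block, 8, 5, 4 and 6 members passed, as without it, and 7894, 6381, 8521 and 7678 genes in all. Deviations of same-numbered libraries correlated at -0.01 to 0.07 in the group pairs compared. Whether same-numbered libraries shared a culture or a preparation was not tested. Depth limits Col4a6, Nid2, Col15a1 and Nid1, whose libraries held at most 63 counts.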
